A study of Mus musculus with 21 samples.

Results

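The vimentin locus was followed through all intervals of the deposited table that lie inside chromosome 2 from 13578000 to 13588000 on the plus strand of mm39. These were 11 of 208307 intervals, from 5 transcripts. The region was chosen by measured values of these libraries, namely a T>C read share (reads in which a T of the reference is read as C) that differed between Lmna F/F and Lmna +/+ hearts carrying Uprt. That contrast is therefore given below as values only, with no test. Tests compared the Lmna genotypes in mice without Uprt, and the level and conversion rate between mice with and without Uprt. The latter reuse the hearts that chose the region and are not independent of that choice.

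The study used SLAM-IT-seq, in which RNA made during a pulse is marked with a modified uracil that is read as C after alkylation. The libraries came from the left-ventricular free wall of 21 mice, all Tg/0 for Myh6MCM, a tamoxifen-dependent Cre under the cardiomyocyte Myh6 promoter. All mice received tamoxifen at 6 to 8 weeks of age on 4 days, then 4-thiouracil 2 weeks later, and hearts were taken 6 hours after it. Uprt encodes an enzyme that lets cells use 4-thiouracil, and its transgene defines the labelled mice.

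The 4 groups were Lmna +/+ with Uprt (Lmna +/+; Myh6MCM Tg/0; Uprt Tg/0; 8 mice, 4 of them female), Lmna F/F with Uprt (6 mice, 4 female), Lmna F/F without Uprt (Myh6MCM Tg/0 alone; 4 mice, 2 female) and Lmna +/+ without Uprt (3 mice, all male). Lmna encodes the nuclear lamins A and C, and F/F is the floxed allele that this Cre removes in cardiomyocytes. All 21 libraries carry the same pool label. Reads assigned to loci numbered 25947354 to 50951618 per library, and 3.08 to 5.92% of them carried a T>C conversion. The labels do not say which mice were littermates, and mice are named here by group and by a replicate number that only follows the order of the records. The free wall holds many cell types, and in such bulk RNA fewer cells of a type and less RNA per cell cannot be told apart. The levels of cell-type marker genes in these libraries were not tested, because the transcript IDs of the table could not be paired with gene names here.

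Vimentin, the product of Vim, is a type III intermediate filament protein. It forms the main filament network of fibroblasts, endothelial cells, smooth muscle cells and white blood cells, while adult cardiomyocytes rely mostly on desmin. It links the cell surface, organelles and nucleus, and its RNA is commonly abundant where fibroblasts are activated. In SLAM-seq data a conversion marks a labelled RNA only if the DNA has a T at that base. An allele that carries C there gives converted reads from each of its RNA copies, labelled or not.

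Nearly all counted reads lay in the intervals at the 3′ end of the gene. Only reads on the listed intervals, which are named as 3′ UTR entries, were counted. Reads on the rest of the gene are therefore not seen here. The 342-base interval at 13587295 to 13587636, of transcript ENSMUST00000193675.2, held 268285 reads over the 21 libraries and was the most read. The 312-base interval of ENSMUST00000028062.8, at 13587326 to 13587637, lies almost wholly inside it and held 255501 reads. A 6-base interval of ENSMUST00000148248.3, at 13587284 to 13587289, lies 5 bases upstream of the 342-base interval and held 181660 reads. Since reads are 100 bases long, a read on the 6-base interval commonly runs on into the 342-base interval, so these 3 intervals share reads and are not independent.

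The same transcript has 4 further intervals upstream. They are 178 bases long (13584180 to 13584357, 1546 reads), 221 bases (13584829 to 13585049, 12422 reads), 44 bases (13585451 to 13585494, 6363 reads) and 86 bases (13586424 to 13586509, 18747 reads). The remaining 4 intervals lie toward the 5′ side, belong to ENSMUST00000155605.2 or ENSMUST00000191615.2, and held 197 to 928 reads each over all libraries. After overlapping intervals were reduced to the most read and the intervals of a transcript summed, 8 of the 11 intervals remained, in 3 loci. Exon, intron and UTR classes on mm39 were not used here, and the name Vim comes from the position of the region.

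The T>C read share at the 3′ end took values in 2 separate ranges. In the 6-base interval it was 6.06 to 8.03% in 9 mice and 47.9 to 78.7% in 12 mice, with no mouse between. Of the 8 Lmna +/+ mice with Uprt, 7 lay at 6.06 to 8.03% and replicate 1, a female, at 75.0%. Among the Lmna +/+ mice without Uprt the shares were 78.7, 6.74 and 7.13%. Every Lmna F/F mouse was in the upper range. With Uprt these 6 mice had a lowest share of 57.9%, a median of 64.8% and a highest of 69.2%, and without Uprt the 4 mice had 47.9, 56.4, 71.4 and 68.9%. The upper range thus held 1 of 8 and 1 of 3 Lmna +/+ mice and all 10 F/F mice, whether or not they carried Uprt.

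The 342-base interval split the same mice. Its share was 4.89 to 6.99% in the 9 lower mice. In the 12 others it was 56.5% (Lmna +/+ with Uprt, replicate 1), 62.0% (Lmna +/+ without Uprt, replicate 1), 38.0 to 54.3% with a median of 44.3% (the 6 F/F mice with Uprt), and 26.2, 28.8, 39.8 and 47.2% (the 4 F/F mice without Uprt). The 2 Lmna +/+ mice in the upper range had higher shares than every F/F mouse in both intervals. The median over the 8 Lmna +/+ mice with Uprt was 6.01%.

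**Figure D1:**
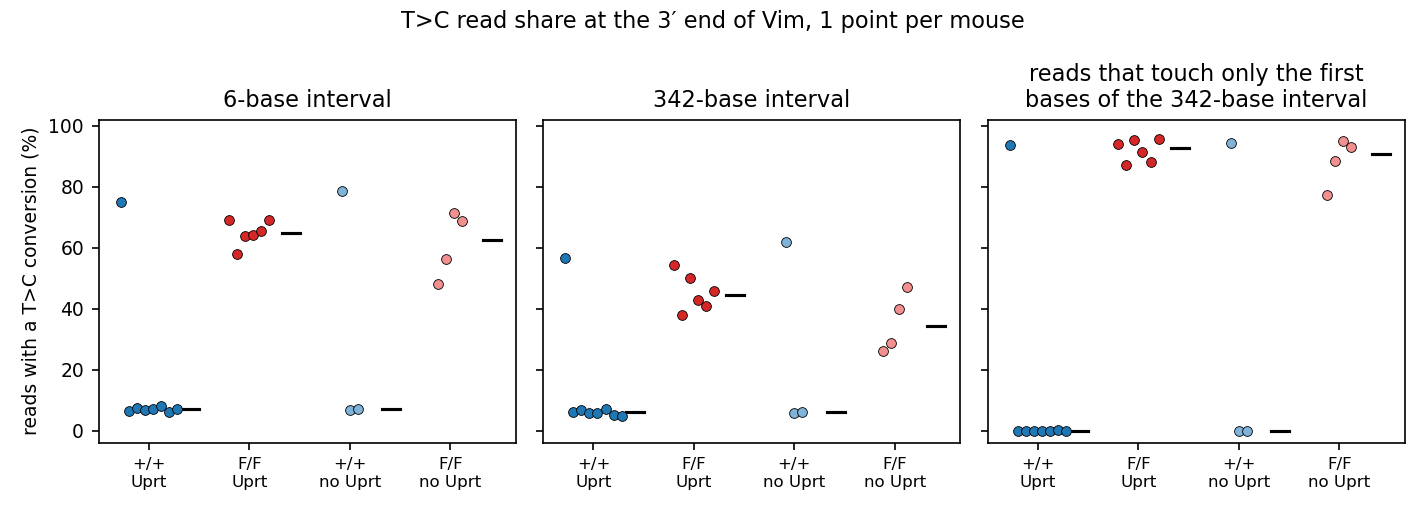
Share of T>C reads in percent, in the 6-base and 342-base intervals and in the reads that touch the 342-base interval only in its first 31 bases (and otherwise lie upstream of it), 1 point per mouse, with a short line at each group's median (n = 8, 6, 3 and 4). In each panel the same 12 mice, which include all 10 Lmna F/F mice and 1 Lmna +/+ mouse of each Uprt group, lie far above the other 9.

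In the lower 9 mice each T>C read of the 342-base interval came with about 1 conversion inside the interval, between 98.2 and 101 conversions per 100 T>C reads. In the upper 12 mice the interval held only 8.40 to 17.1 conversions per 100 T>C reads. In replicate 1 of the Lmna +/+ mice with Uprt, for example, 5397 reads were counted as T>C and 454 conversions were counted on the 95 T bases of the interval. In replicate 3 of the same group 700 T>C reads came with 700 conversions. In the first of these mice at least 4943 T>C reads thus had no conversion counted inside the interval.

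**Figure D2:**
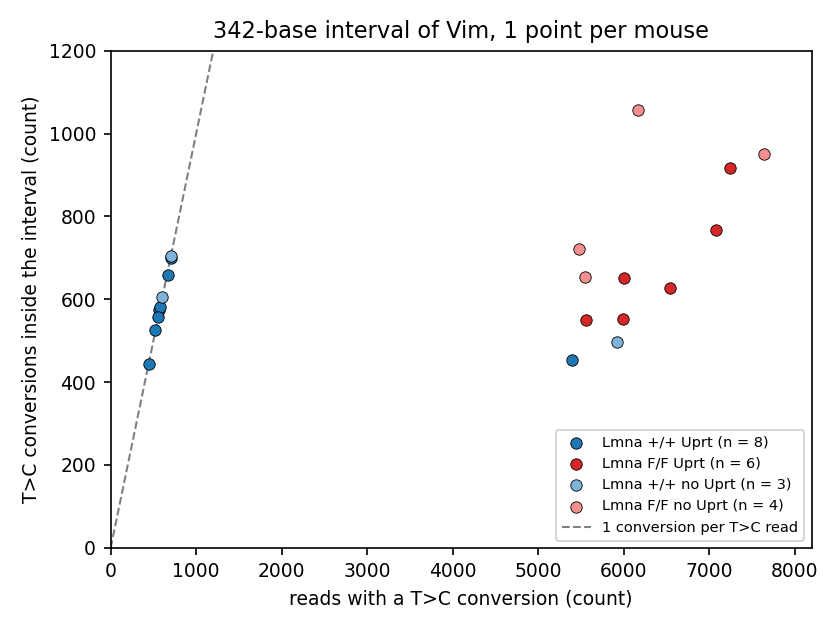
T>C conversions counted inside the 342-base interval against the number of its reads with a T>C conversion, 1 point per mouse, with a dashed line at 1 conversion per T>C read. The 9 mice of the lower range lie on the line, and the 12 mice of the upper range lie far to its right at similar heights.

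The 6-base interval showed the same gap more sharply. Its 2 T bases held 69 conversions in all 21 libraries together, against 77486 T>C reads. Every conversion counted on the 6-base and 342-base intervals was subtracted from the T>C reads of the 6-base interval. The rest is a lower bound on reads with no conversion counted on either interval. Such reads have their conversion outside both only if every conversion on the T bases of the intervals was counted, which was not tested. That bound was 4555 to 6395 reads in each of the upper 12 mice, or 41.4 to 72.0% of the reads on the 6-base interval, and 0 in each of the lower 9.

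The nesting of the intervals narrowed the place of these conversions. Reads on the 342-base interval that did not reach the 312-base interval touch only its first 31 bases, 13587295 to 13587325. They numbered 371 to 778 per mouse. Of them 630 of 673, or 93.6% (exact 95% binomial interval 91.5 to 95.3%, which covers counting error only), were T>C in replicate 1 of the Lmna +/+ mice with Uprt. The share was 94.2% (567 of 602) in replicate 1 of the Lmna +/+ mice without Uprt. It was 87.1 to 95.5% in the F/F mice with Uprt and 77.3 (453 of 586), 88.5, 94.9 and 92.9% in those without. In the lower 9 mice it was 0% except in replicate 7 of the Lmna +/+ mice with Uprt, where 1 of 602 reads (0.166%) was T>C. In the upper 12 mice most reads of this class were converted, and in the lower 9 almost none.

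By contrast, the reads on the 342-base interval in excess of those on the 6-base interval, which approximate the reads starting downstream of it, were T>C at 0.979 to 5.27% in all 21 mice. The upper range was thus seen where reads cover the 6-base interval and its surroundings and not where they start further downstream. An ungapped 100-base read that reaches the 312-base interval starts no earlier than 13587227, and the first base upstream of the 6-base interval is 13587283. The converted base of such an ungapped read lies in those 57 upstream bases or in the 5 bases from 13587290 to 13587294. This holds unless the table leaves out some conversions on the T bases of an interval. A read spliced from the 86-base interval to the 6-base interval of the same transcript would not hold the 57 bases. Whether the reads were spliced was not examined. The sequence of the mice at these bases was not analysed here, so a DNA difference between mice was not tested directly.

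One further measure moved with the groups. Reads on the 6-base interval as a percentage of reads on the 342-base interval were 76.2 ± 7.61% (SD, n = 8) in Lmna +/+ with Uprt, 68.3 ± 6.84% (n = 6) in F/F with Uprt, 76.9 ± 3.50% (n = 3) in Lmna +/+ without Uprt and 55.0 ± 7.88% (n = 4) in F/F without Uprt. This ratio sets how many reads of the 342-base interval can cover the bases upstream of it. The lower T>C share of F/F mice without Uprt in that interval lies beside this lower ratio, and the part of the ratio in the share was not tested.

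The 86-base, 44-base and 221-base intervals upstream did not show the 2 ranges. In the 86-base interval the T>C share was 0.141 to 3.78% over the 21 mice and in the 44-base interval 0 to 3.24%. In the 221-base interval it was 8.41 to 35.6%, present in every mouse, with 2204 conversions for 2200 T>C reads, so that here the conversions lay inside the interval. The highest values of this interval, 35.6 and 31.9%, came from replicates 8 and 6 of the Lmna +/+ mice with Uprt, which were both in the lower range at the 3′ end.

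The 178-base interval, with only 35 to 170 reads per mouse, leaned the other way. Its T>C share in the Lmna +/+ mice with Uprt had a lowest value of 0%, a median of 20.2% and a highest of 38.1%, and it was 0, 46.4 and 31.0% in those without. The F/F mice had 0 to 19.0% with Uprt (median 5.21%) and 0 to 4.95% without. Both Lmna +/+ mice of the upper range at the 3′ end had 0%, as did replicates 2 and 3 of the Lmna +/+ mice with Uprt, which were in the lower range there. The interval held 108 conversions for 151 T>C reads over all mice. Without Uprt its log2 odds ratio of F/F against Lmna +/+ was -3.97 ± 2.02 (edgeR, adjusted p = 0.753), which was not called.

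The T>C share was tested in the mice without Uprt, which had not chosen the region. In them the shares of the 342-base interval were 26.2 to 47.2% in the 4 F/F mice and 5.79, 6.02 and 62.0% in the 3 Lmna +/+ mice, so that the groups overlapped. The difference of means was 10.9 percentage points (two-sided exact permutation p = 0.514, adjusted p = 0.514 over the 3 contrasts computed, smallest possible p 0.0571). The edgeR fit of converted and unconverted reads over 11938 loci gave a log2 odds ratio of 1.71 ± 1.02 (SE, adjusted p = 0.806) for this locus and 2.14 ± 1.03 (adjusted p = 0.731) for that of the 6-base interval. Neither was called, against a background of 0.0168% of loci called. The first value became 3.00 (adjusted p = 0.327) without replicate 1 of the Lmna +/+ mice lacking Uprt, 0.63 (adjusted p = 0.976) without replicate 2 and 0.65 (adjusted p = 0.959) without replicate 3, so that each of these 3 mice moved it. The second became 3.45, 1.01 and 1.04 without the same mice, and was called in none of these fits. Its locus sums the 6-base interval with the 4 upstream intervals of the same transcript. The 6-base interval alone gave 2.82 ± 1.24 (edgeR, adjusted p = 0.715), which was not called either.

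In mice with Uprt, where the region was chosen, the same fit gave a log2 odds ratio of 3.31 ± 0.65 for the locus of the 342-base interval and 3.37 ± 0.65 for that of the 6-base interval, stated as a description. The 6-base interval alone gave 4.15 ± 0.76, likewise a description.

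For Uprt against none, the share is given without a test, because the hearts with Uprt chose the region on this very measure. Low shares in Lmna +/+ and high shares in F/F hearts with Uprt were part of that choice, which pushes the values within each genotype in opposite directions. The log2 odds ratio was -0.21 ± 0.59 (SE) for the locus of the 342-base interval and -0.46 ± 0.59 for that of the 6-base interval. With single libraries left out, the first ranged from -0.76 to 0.43 and the second from -1.02 to 0.20. The lower end of both came from leaving out replicate 2 and the upper end from leaving out replicate 1 of the Lmna +/+ mice without Uprt, so the sign rests on single mice. In this contrast 59.2% of all 11938 loci were called, 59.0% of them higher with Uprt as a share of the loci tested. Within Lmna +/+, where 37.3% of loci were called, the first value was -1.01 ± 0.91, with a range of -2.10 to 0.28 when those libraries were left out in turn. Within F/F, where 45.6% of loci were called, it was 0.58 ± 0.72. These wide errors do not show that labelling leaves the Vim share unchanged.

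The conversion rate inside the 342-base interval, meaning conversions per covered T base, is not touched by conversions outside it. It was 0.416 ± 0.0938% (SD, n = 8) in Lmna +/+ with Uprt and 0.406 ± 0.0265% (n = 3) without. In F/F it was 0.316 ± 0.0986% (n = 6) with Uprt and 0.266 ± 0.0774% (n = 4) without. The ranges overlapped between mice with and without Uprt in both genotypes. Across 10578 loci the median rate was 0.296% with Uprt and 0.110% without in Lmna +/+, and 91.5% of loci were higher with Uprt. In F/F the medians were 0.306 and 0.113%, with 90.8% of loci higher. The Vim rate without Uprt therefore lay above the median rate of labelled loci in Lmna +/+, and the difference between the means with and without Uprt was 0.00908 percentage points for Vim beside a median difference of 0.150 for all loci.

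Over 9 intervals with at least 50 covered T bases in every mouse and 3 contrasts, 27 exact permutation tests of the conversion rate called none after adjustment, and none had an unadjusted p under 0.05. The smallest p was that of F/F against Lmna +/+ without Uprt in the 342-base interval, where the 4 F/F mice had 0.186 to 0.372% and the 3 Lmna +/+ mice 0.379 to 0.432%. The groups did not overlap, with a two-sided exact permutation p of 0.0571 (adjusted p = 0.771), the smallest this design allows. The share of all loci whose conversion rates separate these groups was not counted. The 312-base interval, which holds the same reads, gave the same p. Here the rate was lower in F/F, the opposite side from the T>C read share. Without Uprt, the 342-base interval held 655 to 1056 conversions per F/F mouse and 497 to 704 per Lmna +/+ mouse. Its covered T bases were 255269 to 421122 and 131156 to 172252, so the lower F/F rate lay beside more covered bases. The reach ratio given above was also lower in these F/F mice (mean 55.0 against 76.9%). The part of read position in the rate was not tested.

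The level of Vim in all reads was taken as CPM, the reads of an interval scaled to the library by TMM, and it was higher in F/F than in Lmna +/+ hearts. Without Uprt, the 3 Lmna +/+ mice had 245, 261 and 264 CPM in the 342-base interval and the 4 F/F mice 331, 340, 490 and 534. The groups did not overlap, and replicates 1 and 2 of the F/F mice stood above the other 2. How many of all loci lack overlap between these groups was not counted, here or for the intervals below. The means were 257 ± 10.4 (SD, n = 3) and 424 ± 104 (n = 4). The edgeR fit over 20523 loci gave a log2 fold change of 0.73 ± 0.16 (SE), or 1.66-fold, with an adjusted p of 0.00612. In this contrast 8.91% of all loci were called, 5.42% of them higher and 3.49% lower in F/F as shares of the loci tested. All 3 Lmna +/+ mice were male, and the 2 male F/F mice had 490 and 331 CPM, both above them. Fitted on the 7 libraries without Uprt alone, the change was 0.68 with an adjusted p of 0.215, which ends the call, and that smaller fit called 5 of 18646 loci (0.0268%).

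The other 2 Vim loci were not called. That of the 6-base interval had 226 ± 19.4 CPM (SD, n = 3) in Lmna +/+ and 295 ± 55.2 (n = 4) in F/F, a log2 fold change of 0.42 ± 0.15 with an adjusted p of 0.0687. That of the 5′ intervals had 0.56 ± 0.40 (edgeR, adjusted p = 0.449). Thus 1 of the 3 loci was called, beside the 8.91% of all loci.

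Fitted interval by interval, 4 of 11 were called in mice without Uprt, all higher in F/F, beside 8.92% of all features called in that fit. The 4 include the 342-base and 312-base intervals, which hold nearly the same reads. The 86-base interval had 10.2, 14.2 and 15.6 CPM in Lmna +/+ mice and 19.2, 23.9, 38.5 and 45.3 in F/F mice. Its log2 fold change was 1.26 ± 0.24 (edgeR, adjusted p = 0.00248), and its groups did not overlap. The 44-base interval had 3.11, 3.18 and 5.45 against 6.93, 8.07, 14.5 and 17.2, a log2 fold change of 1.49 ± 0.29 (adjusted p = 0.00277), again without overlap. The 342-base and 312-base intervals had adjusted p of 0.00608 and 0.0043.

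The 6-base interval differed from these. It had 178, 205 and 210 CPM in Lmna +/+ and 184, 218, 253 and 258 in F/F mice, so that the groups overlapped, with a log2 fold change of 0.27 ± 0.14 (edgeR, adjusted p = 0.261). The 221-base interval had a log2 fold change of 0.86 ± 0.30 (adjusted p = 0.0721). The remaining 5 intervals had log2 fold changes of 0.49 to 1.37 and were not called, at depths of 197 to 1546 reads in all libraries. The fitted sign was positive in all 11 intervals, which share reads or a transcript and are not 11 independent measurements.

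**Figure D3:**
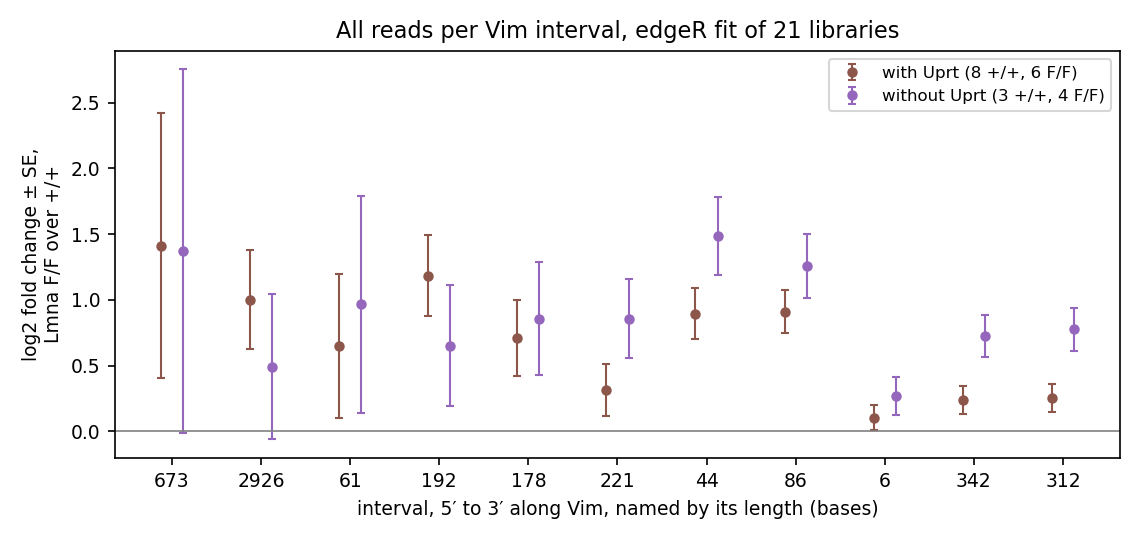
Log2 fold change in all reads of Lmna F/F over +/+ for each of the 11 Vim intervals in 5′ to 3′ order, with bars of 1 SE, from the edgeR fit of 21 libraries. All points lie above 0 in mice without Uprt, where 4 intervals were called, and the 6-base interval has the smallest change in both settings. The values with Uprt are a description without a test.

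In mice with Uprt, described only, the 342-base interval had 267 to 367 CPM with a median of 291 in Lmna +/+ and 305 to 385 with a median of 352 in F/F, and the groups overlapped. The fitted log2 fold change was 0.24 ± 0.11. The 86-base interval had 12.8 to 19.7 in Lmna +/+ and 22.3 to 36.3 in F/F, without overlap, at a log2 fold change of 0.91 ± 0.16. The 44-base interval had 3.24 to 7.33 and 9.19 to 10.8, also without overlap, at 0.90 ± 0.19. The 6-base interval had 224 ± 19.1 and 238 ± 36.8 (SD, n = 8 and 6), at 0.11 ± 0.10. In these mice the ranges of the 2 internal intervals thus lay apart, while those at the 3′ end overlapped. How many of all loci have ranges that lie apart was not counted. Whether the change of the 342-base interval differs between mice with and without Uprt was not tested.

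**Figure D4:**
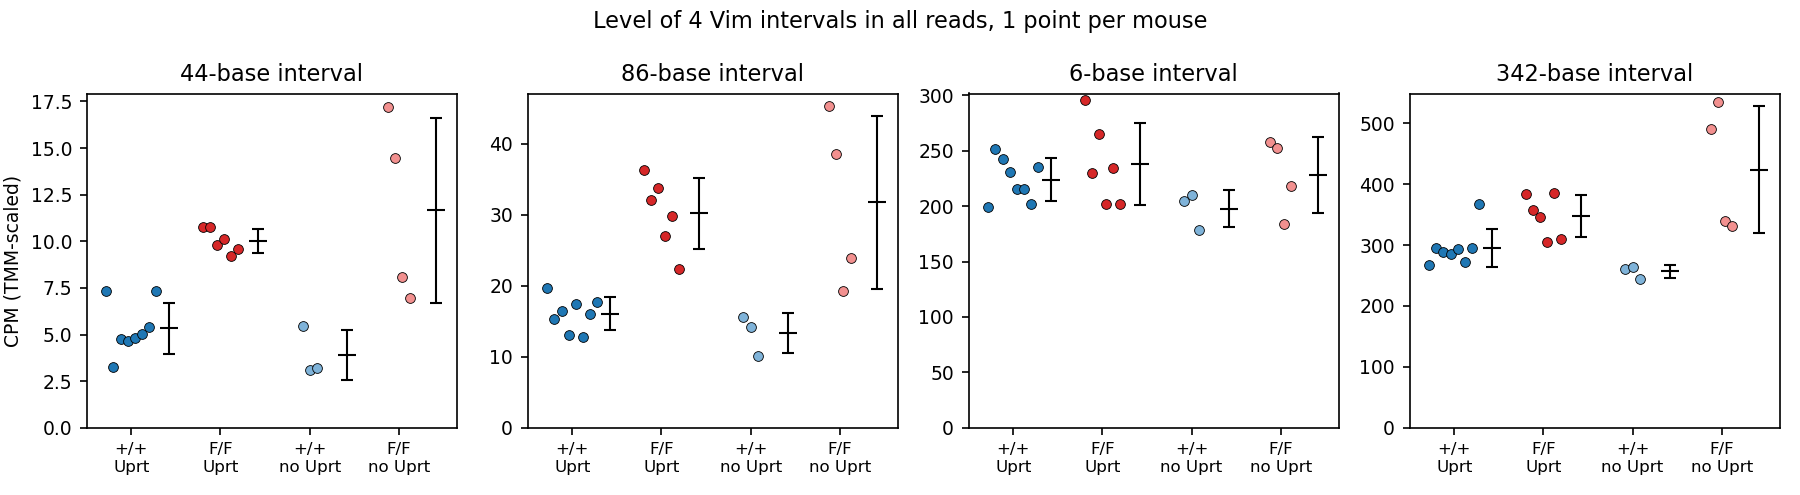
CPM after TMM scaling in the 44-base, 86-base, 6-base and 342-base intervals, 1 point per mouse, with the mean ± SD of each group beside it (n = 8, 6, 3 and 4). The 44-base and 86-base intervals separate F/F from +/+ mice within each Uprt group, while the 6-base interval overlaps.

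In the 342-base interval the Lmna +/+ mice with a high T>C share did not have the level of F/F mice. Replicate 1 with Uprt, whose T>C share was 56.5%, had 267 CPM in the 342-base interval, the lowest of its 8 mice. Replicate 1 without Uprt, with a share of 62.0%, had 261, between the 245 and 264 of the other 2 mice. Neither mouse with a high share had a level in the F/F range at the 342-base interval. In the internal intervals they were at the upper end of their own groups: the 86-base interval had 19.7 CPM in replicate 1 with Uprt, the highest of 8, and 15.6 in replicate 1 without, the highest of 3. Both lay below the F/F mice with Uprt. The 19.7 CPM of replicate 1 with Uprt lay above the lowest F/F mouse without Uprt (19.2), and so did its 7.33 CPM in the 44-base interval (lowest F/F mouse without Uprt 6.93). In these internal intervals that mouse therefore reached the range of the F/F mice, and these are single mice without a test. In the F/F mice without Uprt the highest levels, 490 and 534, belonged to the mice with the lowest shares, 26.2 and 28.8%. The 2 measures are not independent, since the reads that give the level are the denominator of the share. These 2 mice had 5478 and 6169 T>C reads in the interval, and replicates 3 and 4 had 5551 and 7643.

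Uprt itself was not seen to move the level. The log2 fold change of Uprt against none was -0.04 ± 0.10 (edgeR, adjusted p = 0.927, 95% interval -0.23 to 0.15) for the locus of the 342-base interval and 0.14 ± 0.09 (adjusted p = 0.624) for that of the 6-base interval. None of the 3 Vim loci was called, beside 0.122% of all loci. Within Lmna +/+ the 342-base locus had 0.21 ± 0.14 (adjusted p = 0.809) and within F/F -0.28 ± 0.13 (adjusted p = 0.363), where 0.0341% of loci were called.

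The pattern of the T>C share was then set beside those of other loci, as a description over the same 21 libraries, which share their depth and labelling. Among 10579 loci with at least 50 reads in every library, the other Vim locus followed the 342-base interval with a Pearson r of 0.983 (Spearman rho 0.892), with which it shares reads. Outside Vim the highest r was 0.626, at 119067498 to 119070207 of chromosome 9, whose share ran from 1.22 to 15.4%. The next 4 had r of 0.604 to 0.620 and lay on chromosomes 10 and 18 and, in 2 cases, on X. A wider range of shares than the 57.1 percentage points of Vim was found at 26 of these loci.

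Neighbours on chromosome 2 were less like Vim than its other locus. Within 5 Mb of the 342-base interval, 23 loci met the read minimum, with r from -0.408 to 0.599 and a median of -0.02. The nearest upstream, at -73.5 kb, had r of -0.187 and the nearest downstream, at 68.5 kb, r of -0.234. Of the 5 nearest on each side, the highest r was 0.599, at 14335987 to 14336868 (ENSMUST00000028045.4), with a share of 0.676 to 11.5% and a Spearman rho of 0.636. That r is close to those of the 5 most similar loci outside Vim given above. A share is T>C reads over all reads of a locus. At the 5 nearest loci on each side the lowest read count of any library was between 60 and 2362. Shares at the lower counts are noisy, and the DNA of the mice at these loci was not tested.

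**Figure D5:**
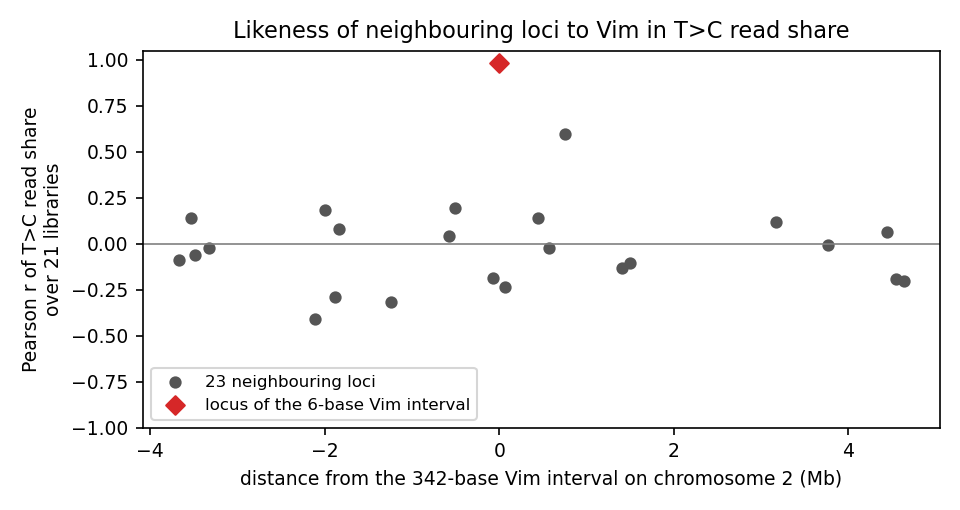
Pearson r over 21 libraries between the T>C read share of the 342-base Vim interval and that of each of 23 loci within 5 Mb on chromosome 2, against distance. The other Vim locus lies at 0.983 and all neighbours between -0.408 and 0.599.

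The mismatch between T>C reads and conversions was uncommon. Of 4415 intervals with at least 1000 reads in every library, 22 (0.498%) had in some library an excess of T>C reads over conversions of at least 20% of their reads. In 9 of these another library had an excess under 2%. They were the 342-base and 312-base Vim intervals, both with 12 libraries over and 9 under, and 7 intervals on chromosomes 1, 12, 16 and 17. Those on chromosome 1 share a start and those on chromosome 12 overlap, so they are not separate sites. The interval at 24297902 to 24297999 of chromosome 17 had 12 libraries over 20% but only 2 under 2%, with a highest share of 53.0%. Whether its 12 libraries are those of the upper Vim range was not examined.

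The level of the 342-base interval was most like those of 3 loci among 14103 with a mean of at least 1 CPM, by Pearson r of log2 values over 21 libraries. They lay at 9904216 to 9905155 of chromosome X (r = 0.944), 45387908 to 45388866 of chromosome 1 (r = 0.936) and 29692030 to 29694331 of chromosome 11 (r = 0.930). The chromosome 1 locus, ENSMUST00000087883.13, had group means of 111 CPM in Lmna +/+ with Uprt, 320 in F/F with Uprt, 91.3 in Lmna +/+ without and 673 in F/F without. Its order of groups was that of the Vim level.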

How the data were processed

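Members and lists were chosen with earlier results of these data known. The deposited table holds counts per interval and library, per the file headers, in SlamDunk's column layout: reads, T>C reads, covered T bases and conversions. Its T content was taken as deposited. Per the submitters' processing notes, reads were placed on mm39. Aligner settings, variant filter and T>C read threshold were not given in the sources used here. No column of other samples was present. None of 90406 transcript IDs matched the reference table, so marker lists were not run.

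Loci (46278) were built by keeping the most read of overlapping intervals and summing intervals of a transcript. Levels were tested with edgeR 4.0.16 (R 4.3.3), TMM, filterByExpr with a minimum count of 10, group and sex terms and Benjamini-Hochberg adjustment over all loci at 0.05. Shares were tested in edgeR on converted and unconverted reads. Conversion rates were tested by two-sided exact permutation (doubled smaller tail). On simulated data with 200 loci changed by 1 log2 unit, 53.0% were recovered for the level without Uprt (20058 loci) and 26.5% for the share of Uprt against none (11004 loci). DESeq2 1.42.0, other scalings, filters, intervals and sample sets, and each library left out were alternatives. All intervals of the region were named, and outside it the 5 loci most like Vim in share, the 5 nearest on each side, and the 3 most like it in level. The labels name separate samples but no replicate numbers, and the tests judge differences against the spread between these samples. In the main edgeR fits that spread comes from all 21 libraries, which include the hearts that chose the region.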

Additional observations from a re-analysis of the deposited data

Results flagged for a closer look

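Dixon's criterion at the 95% level was applied to 60 sets of values, each from a group of 4, 6 or 8 mice. By it 7 values stood apart from the rest of their set. Chance meets it in about 1 in 20 independent sets. The values share reads and mice, so the sets are not independent. The T>C shares of the Lmna +/+ mice with Uprt also took part in choosing the region. Flags on those shares are therefore a description and not a test. All 7 were in the Lmna +/+ mice with Uprt. Replicate 1 had a T>C share of 75.0% in the 6-base interval (6.06 to 8.03% in the other 7 mice), 56.5% in the 342-base interval (4.89 to 6.99%), 53.7% in the 312-base interval (5.10 to 7.41%) and 93.6% among reads that touch only the first 31 bases of the 342-base interval and otherwise lie upstream of it (0 to 0.166%). Replicate 8 had a level of 367 CPM in the 342-base interval (267 to 295 in the others) and 352 in the 312-base interval (248 to 278). Replicate 4 had a T>C share of 3.78% in the 86-base interval (0.166 to 1.71%). The groups of 3 mice were not tested in this way, so replicate 1 of the Lmna +/+ mice without Uprt could not be flagged.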

How the results depend on the processing

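Of 752 alternative values for 34 results, 706 kept their direction and side of the threshold, 7 changed side, 6 moved and 33 changed sign. For F/F against Lmna +/+ without Uprt, the level change of the locus of the 342-base interval lost its call when only the 7 libraries without Uprt were fitted (log2 0.68, edgeR adjusted p = 0.215), a fit that called 5 loci against 1828 in the fit of 21. With single libraries left out it ranged from 0.62 to 0.86 and stayed called, with an adjusted p of at most 0.0482. The locus of the 6-base interval became called with library size alone (0.60), DESeq2 (0.44), the 44-base interval alone (1.49) and the 86-base interval alone (1.26). With single libraries left out it ranged from 0.33 to 0.51, and was called without replicates 3 (0.49) and 4 (0.51) of the F/F mice. Library size alone moved the median log2 change of all loci to 0.18 without Uprt, and to 0.16 with it. In mice with Uprt, the share of the 6-base locus turned to -0.62 when taken from the 221-base interval alone. The highest r of share outside Vim became 0.729 with at least 20 reads and 0.795 with conversion rates. No tested value that changed sign was called before or after, and 17 of the 33 came from single libraries left out. For the level of Uprt against none, the ranges with single libraries left out were -0.10 to 0.057 for the 342-base locus and -0.031 to 0.29 for the 5′ locus. Within Lmna +/+ the 5′ locus ranged from -0.35 to 0.16 (0.039 with no sex term). Within F/F the 6-base locus ranged from -0.070 to 0.13, and was -0.11 with library size alone and -0.31, -0.25 and -0.069 from the 221-base, 44-base and 86-base intervals alone. Over both genotypes it was -0.042 from the 221-base interval. For the share of Uprt against none the ranges were -0.76 to 0.43 (342-base locus) and -1.02 to 0.20 (6-base locus, 0.51 from the 86-base interval alone). Within Lmna +/+ they were -2.10 to 0.28 and -2.20 to 0.24, the latter locus giving 0.024, 0.099 and 0.63 from the 221-base, 44-base and 86-base intervals. Within F/F the 6-base locus ranged from -0.034 to 0.39 and was -0.070 and -0.90 from the 221-base and 44-base intervals. Without Uprt its F/F share turned to -0.53 from the 221-base interval. The conversion rate of Uprt against none in Lmna +/+ ranged from -0.00801 to 0.0263 percentage points. Taken as T>C reads over reads it was -12.4, and 10.9 for F/F against Lmna +/+ without Uprt. No paired analysis was possible because the labels carry no replicate numbers. At 4 against 3 mice no exact permutation p can fall below 0.0571. The causes were not tested.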
